A study of Homo sapiens with 8 samples.

Results

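NCI-H82 is an established human line of small cell lung cancer, a neuroendocrine tumour in which the retinoblastoma protein pRB is usually lost. The cells carried a doxycycline-switched RB1 transgene (pTripZ RB1), which was left off in the libraries described here, so that all of them are pRB-. The comparison set 2 pRB- libraries from cells given AZD2811 at 32 nM for 48 h against 2 pRB- libraries from cells given the solvent DMSO, called control below. The sample titles name the compound AZD1152, a prodrug whose active form is AZD2811. In both groups doxycycline was absent throughout, and the drug or solvent followed 48 h of growth from 100000 cells per mL. The members are all genes with a mean of at least 1 FPKM over the 8 libraries of the series after rescaling between libraries. The HIST, SNORD, SNORA, SCARNA, RNU and MIR families were set aside as taken to follow library type, though the SNORD and MIR medians did not do so in the pRB- libraries. That left 11693 genes of the 25337 with a usable name in the table, and 320 genes of those families were set aside. The remaining 4 libraries, with doxycycline at 0.5 µg/mL for 96 h and with or without AZD2811, are pRB+. They entered the same scaling, filter and fit, so their spread is part of the standard errors, intervals and p-values of the pRB- comparison. Their values are given only beside those of pRB- cells.

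Aurora B is the kinase of the chromosomal passenger complex, in which INCENP, survivin (BIRC5) and borealin (CDCA8) place it on centromeres and then on the central spindle. It corrects faulty attachments of chromosomes to the spindle, sustains the spindle checkpoint and is needed for cytokinesis, so cells in which it is blocked can leave mitosis without dividing. pRB restrains the E2F factors that switch on replication and mitotic genes, and cells without it lack that brake. The question of the comparison is which transcripts change when Aurora B is inhibited in cells of this kind.

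Values below are scaled FPKM, that is FPKM (fragments counted relative to transcript length and sequencing depth) after rescaling. Differences are on the log2(scaled FPKM + 1) scale as AZD2811 minus control, with 2 libraries in each group. That scale understates the change of genes with low levels. The standard error is from limma, with the spread of each gene estimated over the 4 groups of the series, pRB+ included. The replicates are described as biological, but no source used here tells how separate their cultures were, so the errors measure the spread between these samples. Depth, estimated from the smallest steps between low values, was 25600000 to 33800000 mapped fragments in the 4 pRB- libraries. For a transcript 1500 nucleotides long at 1 FPKM before rescaling, this means a counting error of 14.0% to 16.1%.

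One of the libraries stood apart before any drug effect was considered. RMRP, an RNA without a poly(A) tail that takes part in processing ribosomal RNA, measured 21.2 and 48.3 in the controls, 14003 in AZD2811 replicate 1 and 73.4 in AZD2811 replicate 2. The median of the 47 histone genes set aside, whose messages mostly end without a poly(A) tail, was 0.989 and 0.855 in the controls, 55.4 in AZD2811 replicate 1 and 1.16 in AZD2811 replicate 2. AZD2811 replicate 1 is thus rich in RNA without poly(A) tails and the other 3 pRB- libraries are not, while 2 of the 4 pRB+ libraries, 1 treated and 1 control, are rich as well. Results are therefore also given for each AZD2811 library alone against both controls.

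The spread between libraries shows the same division. Over the 11693 genes the SD of the log2 differences was 0.172 between the 2 controls. It was 0.146 between AZD2811 replicate 2 and control replicate 2, and 0.198 between AZD2811 replicate 2 and control replicate 1. AZD2811 replicate 2 thus lay about as near to the controls as these lay to each other. AZD2811 replicate 1 differed from the controls by an SD of 0.275 and 0.284, and from AZD2811 replicate 2 by 0.294, the widest of the 6 pairs. The number of genes that differed by more than 1 on the log2 scale was 23 between the controls, 26 and 7 between AZD2811 replicate 2 and the controls, and 55 between the AZD2811 libraries.

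**Figure D1:**
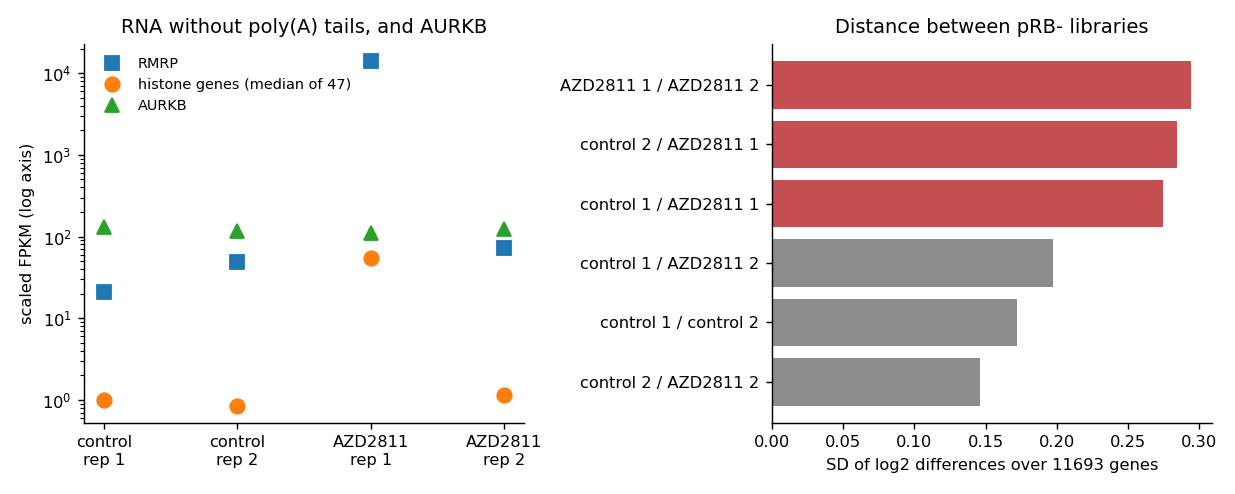
Left, scaled FPKM (log axis) of RMRP, the median of 47 histone genes and AURKB in each of the 4 pRB- libraries. Right, SD of the log2 differences over 11693 genes for each pair of pRB- libraries, with pairs that include AZD2811 replicate 1 in red and the others in grey. The grey pairs lie between 0.146 and 0.198 and the red pairs between 0.275 and 0.294.

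No gene passed the threshold when Aurora B was inhibited in pRB- cells. Of 11693 genes 0 rose and 0 fell (0% called; limma, adjusted p under 0.05), and the smallest adjusted p was 0.997. An unadjusted p under 0.05 was found for 331 genes, 2.83% of those tested, where chance alone gives 585. Of these, 127 (1.09%) had higher and 204 (1.74%) lower values under AZD2811. Since every gene named below has an adjusted p of 0.997 in this comparison, the values given for them describe these libraries and are not called changes.

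The precision of the comparison says how large a change the data leave room for. The 95% interval of the difference reached a median of 0.26 to either side on the log2 scale. For 11599 genes, 99.2% of those tested, the interval lay between -1 and 1, and for 10116 genes (86.5%) between -0.5 and 0.5. Among the 5028 genes at 10 scaled FPKM or more in pRB- cells, the interval lay between -0.5 and 0.5 for 89.8%. Simulated data took the gene spreads of the 8 libraries, shuffled over genes and the same in every library. In them 87.5% of genes changed by 1 and 38.8% of genes changed by 0.5 were recovered in this comparison. The wider distance of AZD2811 replicate 1 and the tie of spread to level were not simulated. These shares are therefore only a rough guide to these data.

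Fitted differences of more than 1 on the log2 scale were seen in 14 genes, 11 higher and 3 lower, named here after their values were seen. Of the 11, RMRP, RPPH1 (the RNA of RNase P), TERC (the telomerase RNA) and the small RNAs SNAR-B1, SNAR-E and SNAR-G1 are transcripts without poly(A) tails. MTRNR2L2, MTRNR2L8 and MTRNR2L9, copies of mitochondrial ribosomal RNA sequence in the nuclear genome, were the next group, and LOC284801 and GUSBP9 complete the list. MTRNR2L9 shows their pattern, with 309 and 143 in the controls, 2954 in AZD2811 replicate 1 and 157 in replicate 2. Apart from SNAR-G1 and GUSBP9, the high value of each of the 11 belonged to AZD2811 replicate 1 alone. The 3 lower ones were LINC00159, ANKRD30BL and RPL21, and RPL21 (a ribosomal protein gene with many near copies) measured 441 and 453 in the controls, 87.8 in replicate 1 and 486 in replicate 2.

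Differences varied with the level of the gene. Their median was 0.031 in the 4068 genes below 5 scaled FPKM, -0.055 in the 1761 genes from 20 to 50 and -0.091 in the 106 genes above 500, where 92.5% of values lay below 0 against 54.1% of all genes. In AZD2811 replicate 1 alone the median went from 0.045 in the lowest of these classes to -0.23 in the highest. In AZD2811 replicate 2 alone it was 0.016 in the lowest class and 0.052 in the highest, and between -0.017 and -0.0082 in the 5 classes between them. The part of library type in this pattern was not tested gene by gene, but with a term for it the medians of the classes lay between -0.037 and 0.016. The median of a list of abundant genes is therefore to be read beside that of its level class, and the median of all genes was -0.013. Shares of genes whose groups do not overlap are set below against all genes, not against a level class.

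**Figure D2:**
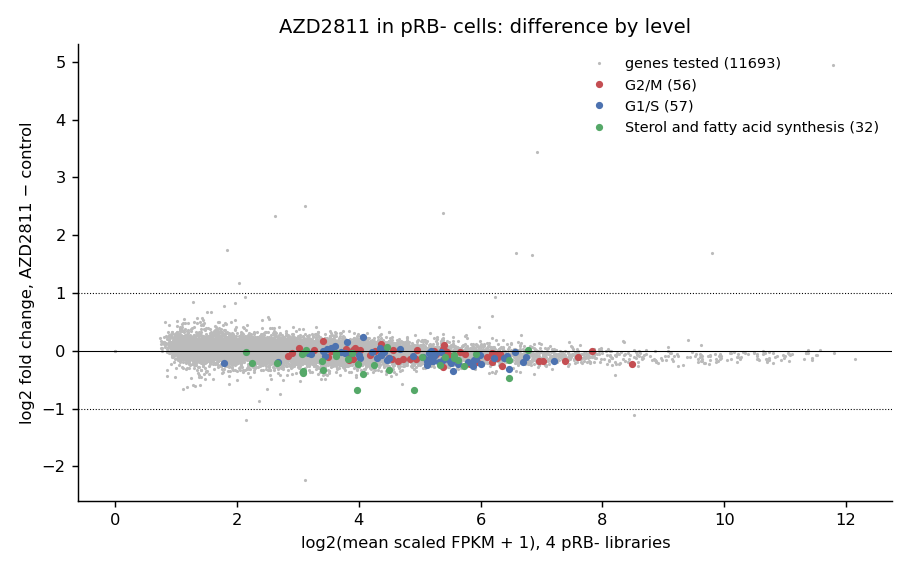
Difference between AZD2811 and control in pRB- cells (log2 fold change, vertical axis) against the mean level of each gene in the 4 pRB- libraries (log2 of scaled FPKM + 1, horizontal axis). Grey points are the 11693 genes, coloured points the G2/M, G1/S and sterol lists, and dotted lines mark -1 and 1; the cloud bends below 0 towards high levels.

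The target kinase and its complex came first among the lists. AURKB, which encodes Aurora B, measured 133 and 117 in the controls and 110 and 122 under AZD2811. The groups overlapped, with a difference of -0.11 ± 0.11 (SE) and a 95% interval from -0.35 to 0.14. RB1, whose transgene was off, measured 0.872 and 0.801 in the controls and 0.941 and 0.950 under AZD2811, a difference of 0.083 ± 0.11 (SE).

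Of the 11 genes of the passenger complex list 10 were tested, 0 rose and 0 fell, and 8 had values below 0, with a median of -0.11. BIRC5 (survivin) measured 65.0 and 64.0 in the controls and 52.3 and 60.0 under AZD2811, and BUB1, the kinase whose histone mark helps to recruit the complex, 31.1 and 31.5 against 28.8 and 27.8. CDCA8 (borealin) was likewise lower in both AZD2811 libraries, at 45.9 and 44.4 against 49.0 and 46.7. PPP1CC, a catalytic subunit of the phosphatase that opposes Aurora B, measured 159 and 160 in the controls and 120 and 136 under AZD2811, a difference of -0.32 ± 0.13 (SE). PPP2R5A, a regulatory subunit of another phosphatase, measured 9.99 and 10.6 against 8.44 and 8.78. In 5 of the 10 genes both AZD2811 libraries lay below both controls, 50%, where 17.6% of all genes did, and in 0 above them, where 12.8% did. The list median was -0.088 in AZD2811 replicate 1 alone and -0.14 in replicate 2 alone. All genes of 20 to 50 scaled FPKM, the class of the list's median level, had a median of -0.055.

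Spindle checkpoint and kinetochore genes were also mostly below 0. Of 24 tested 0 rose and 0 fell, 18 had values below 0, and the median was -0.095, with -0.12 and -0.083 in the AZD2811 libraries taken alone. For all genes of 10 to 20 scaled FPKM, the class of the list's median level, it was -0.026. SPC25, a subunit of the NDC80 complex that holds microtubules at the kinetochore, measured 21.3 and 21.2 in the controls and 15.2 and 18.2 under AZD2811, a difference of -0.33 ± 0.10 (SE). PMF1, a kinetochore subunit, measured 63.5 and 58.0 against 49.4 and 52.99, and MAD2L2, a DNA repair factor related to the checkpoint protein MAD2, 88.3 and 82.2 against 70.7 and 77.3. TTK, the kinase that starts the checkpoint signal, measured 20.5 and 20.3 against 17.6 and 18.8. In all 4 of these genes the groups did not overlap, and 45.8% of the list had both AZD2811 libraries below both controls, against 17.6% of all genes.

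In the central spindle and cytokinesis list, which holds factors that act with or after Aurora B, 18 of 21 genes were tested and 0 rose or fell. The median was -0.053, with -0.0077 in AZD2811 replicate 1 alone and -0.051 in replicate 2 alone. In this list 13 values lay below 0 (72.2%), and in 7 genes both AZD2811 libraries were below both controls (38.9%, against 17.6% of all genes). All genes of 20 to 50 scaled FPKM, the class of the list's median level, had a median of -0.055. In that class 69.8% of values lay below 0, so the list was no lower than its class. RACGAP1, a subunit of the centralspindlin complex that bundles the spindle midzone, measured 51.6 and 50.2 in the controls and 43.7 and 46.1 under AZD2811, a difference of -0.18 ± 0.09 (SE). ANLN, the contractile ring scaffold anillin, measured 21.3 and 21.6 against 19.8 and 18.7. VPS4B, an ATPase of membrane abscission, went the other way in replicate 2 only, with 2.26 and 2.56 in the controls and 2.52 and 3.79 under AZD2811.

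Of the 56 G2/M genes all were tested, 0 rose and 0 fell, and 41 had values below 0 (73.2%, against 54.1% of all genes). The list median was -0.069, beside -0.055 for all genes of 20 to 50 scaled FPKM, the class that holds the median level of this list. In that class 69.8% of values lay below 0, near the share of the list. CDK1, the kinase that drives entry into mitosis, measured 89.9 and 85.9 in the controls and 69.2 and 77.8 under AZD2811, a difference of -0.26 ± 0.11 (SE). PBK, a mitotic kinase, measured 44.4 and 45.0 against 34.7 and 38.2, and DLGAP5, a spindle protein, 26.3 and 24.4 against 23.6 and 21.3. In each of these 3 both AZD2811 libraries lay below both controls.

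Other mitotic regulators also had values below 0. CCNB1 (cyclin B1) stood at -0.12 ± 0.09 (SE), AURKA (Aurora A) at -0.094 ± 0.08 and TOP2A (topoisomerase II alpha) at -0.18 ± 0.11. PLK1, a mitotic kinase, stood at -0.048 ± 0.09, and its groups overlapped, with 82.7 and 76.9 in the controls and 78.1 and 76.0 under AZD2811. In 26 of the 56 genes both AZD2811 libraries lay below both controls (46.4%, against 17.6% of all genes), and in 0 above. The 95% interval lay between -1 and 1 for all 56 genes and between -0.5 and 0.5 for 51. The list median was -0.043 in AZD2811 replicate 1 alone and -0.099 in replicate 2 alone.

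Replication and S phase genes had the most uniform sign of the cell cycle lists. Of 57 G1/S genes 0 rose and 0 fell, while 50 had values below 0 (87.7%) and 31 had both AZD2811 libraries below both controls (54.4%, against 17.6% of all genes). The median was -0.10, or -0.12 and -0.073 for the AZD2811 libraries alone, beside -0.055 for all genes of 20 to 50 scaled FPKM, the level class of the list median. In that class 69.8% of values lay below 0. RRM2, a subunit of the ribonucleotide reductase that makes deoxynucleotides, measured 97.6 and 96.0 in the controls and 76.3 and 79.2 under AZD2811. CDT1, which licenses replication origins, measured 51.0 and 51.2 against 39.8 and 40.1, and RFC2, a subunit of the clamp loader, 37.8 and 35.3 against 29.3 and 32.4. The 3 genes stood at -0.31 ± 0.10, -0.35 ± 0.11 and -0.24 ± 0.09 (SE), and their groups did not overlap, RRM2, CDT1 and RFC2 being the genes of smallest p in the list.

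Genes of homologous recombination and the Fanconi pathway were more evenly divided, with 19 of 31 values below 0, a median of -0.024, and 0 genes that rose or fell. RAD54B measured 9.20 and 9.91 in the controls and 8.37 and 6.17 under AZD2811, and RAD54L 37.3 and 34.4 against 30.5 and 30.4; both encode motor proteins of homologous recombination. CHEK1, the checkpoint kinase that responds to stalled replication, stood at -0.22 ± 0.09 (SE). The list median was -0.065 in AZD2811 replicate 1 alone and 0.012 in replicate 2 alone, so its sign differed between the libraries.

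Sterol and fatty acid genes had a median of -0.16, with -0.17 in AZD2811 replicate 1 alone and -0.11 in replicate 2 alone. It was -0.093 without control replicate 1, and 29 of 32 values lay below 0 (90.6%). None of the 32 rose or fell by the test. INSIG1, which holds the sterol sensor in the endoplasmic reticulum and is itself induced when sterols are short, measured 20.7 and 16.2 in the controls and 11.3 and 10.8 under AZD2811. MSMO1, an enzyme late in the pathway, measured 42.6 and 29.4 against 23.3 and 20.2, and FDFT1, the squalene synthase, 114 and 90.4 against 75.4 and 71.1. The groups of these 3 genes did not overlap, but the controls also differed from each other, replicate 1 being higher in each.

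The error of these values comes from the spread within all 4 groups, the pRB+ groups included. FDFT1 measured 27.9 and 50.2 in the pRB+ controls and 25.4 and 48.6 in the pRB+ AZD2811 libraries. On the log2 scale these pairs lie further apart than the pRB- controls. INSIG1 stood at -0.68 ± 0.29 (SE), MSMO1 at -0.68 ± 0.25 and FDFT1 at -0.46 ± 0.31. IDI1, which makes an isoprenoid building block, stood at -0.40 ± 0.14. In 16 of the 32 genes both AZD2811 libraries lay below both controls (50%, against 17.6% of all genes), and in 0 above. All genes of 10 to 20 scaled FPKM, the class of the list's median level, had a median of -0.026, and 58.9% of their values lay below 0.

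Among single genes, the named ones are those with the smallest unadjusted p in each direction at a mean of at least 5 scaled FPKM and with groups that do not overlap, 10 a direction. The lower ones were mixed in role. SUCLG2, a subunit of succinyl-CoA ligase in the citric acid cycle, measured 10.6 and 10.1 in the controls and 7.35 and 7.95 under AZD2811, a difference of -0.40 ± 0.10 (SE). GPN3, a GTPase that serves the assembly of RNA polymerase II, measured 32.8 and 33.7 against 24.6 and 27.2, a difference of -0.35 ± 0.09. DCPS, the enzyme that clears mRNA caps after decay, measured 15.9 and 14.5 against 11.4 and 11.7. RPL22L1, a paralog of a ribosomal protein gene, stood at -0.43 ± 0.11, with 12.1 and 11.4 against 7.98 and 9.04. In each of these 4 genes both AZD2811 libraries lay below both controls, as the rule requires.

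KIAA0101, which encodes the PCNA-associated factor of the replication fork, measured 102 and 110 in the controls and 77.2 and 89.4 under AZD2811, a difference of -0.34 ± 0.10 (SE). LBH, a transcription cofactor of development, stood at -0.38 ± 0.11 and CCDC28B at -0.34 ± 0.10; SPC25, above, is also of this group. HNRNPH2, a splicing factor gene, measured 19.6 and 20.9 in the controls and 16.5 and 14.5 under AZD2811. The table also lists the readthrough transcript RPL36A-HNRNPH2, which holds the same sequence, and this measured 20.1 and 17.9 against 22.5 and 25.7, the opposite direction, so the value of HNRNPH2 is uncertain. MAP1LC3B2 is a near copy of the autophagy gene MAP1LC3B and likewise uncertain: it stood at -0.38 ± 0.09, while MAP1LC3B stood at -0.080 ± 0.09.

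The genes with higher values were led by SNAR-G1, a small RNA made by RNA polymerase III, with 6.50 and 20.03 in the controls and 89.1 and 46.6 under AZD2811. It lacks a poly(A) tail and has near copies in its family, and the pRB+ controls held 50.5 and 111. With a term for library type its difference was 1.78, against 2.38 without. SCRT1, a neuronal transcriptional repressor, measured 4.47 and 4.54 in the controls and 5.78 and 5.81 under AZD2811, a difference of 0.30 ± 0.09 (SE). POLR3C, a subunit of RNA polymerase III, measured 4.24 and 4.87 against 6.53 and 6.15, a difference of 0.40 ± 0.14. The AZD2811 libraries were nearly equal in SCRT1 and LNP1, and both lay above the controls in all 10 genes, as the choice of genes requires.

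LNP1 stood at 0.34 ± 0.10 (SE), FARP2, a guanine nucleotide exchange factor, at 0.27 ± 0.09 and ROGDI at 0.29 ± 0.10. UPF3A, a factor of nonsense-mediated mRNA decay, stood at 0.24 ± 0.09, and PSEN2, a catalytic subunit of the gamma-secretase that cleaves Notch receptors, at 0.31 ± 0.12. HOXA7, a homeobox gene, and UBAP2 stood at 0.24 ± 0.09 and 0.26 ± 0.10. Leaving SNAR-G1 aside, the 19 genes of both directions differed by no more than 0.43 on the log2 scale.

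**Figure D3:**
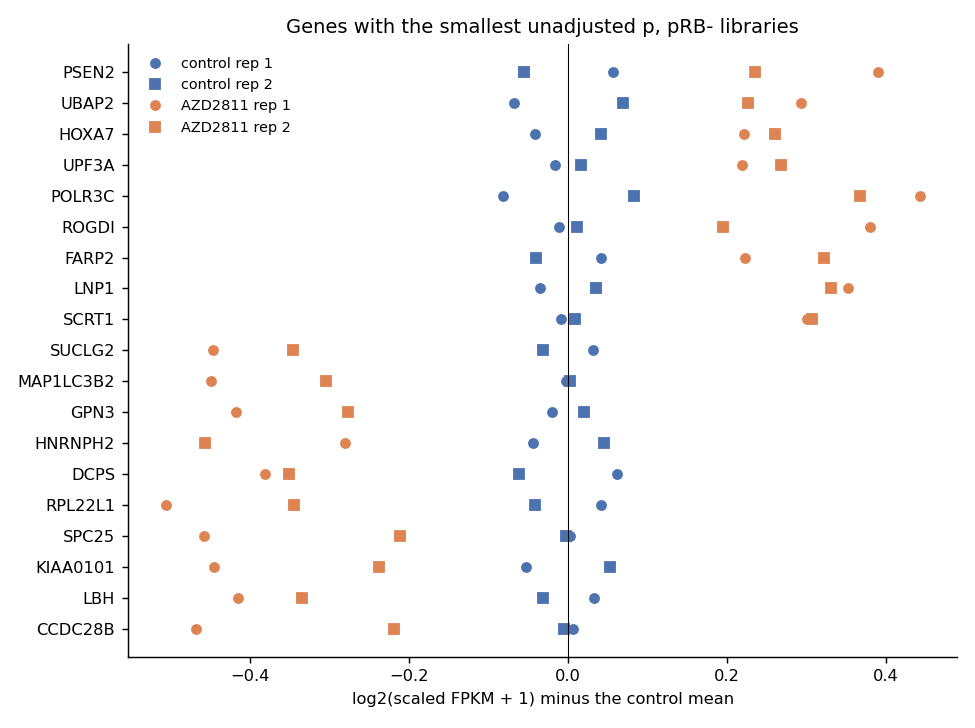
Level of each of the 19 genes with the smallest unadjusted p (SNAR-G1 is off the scale and left out) in each pRB- library, as log2(scaled FPKM + 1) minus the mean of the 2 controls. Blue marks are controls and orange marks AZD2811 libraries, circles replicate 1 and squares replicate 2; the colours do not overlap in any gene because the genes were chosen that way.

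Stress pathways were tested as 5 lists, and 0 of their genes rose or fell. The integrated stress list of ATF4 targets had a median of 0.049 over 29 genes, with 8 values below 0 (27.6%, against 54.1% of all genes). Of all genes of 10 to 20 scaled FPKM, the class of the list's median level, 58.9% lay below 0. The AZD2811 libraries disagreed: the median was -0.093 in replicate 1 alone and 0.19 in replicate 2 alone. ASNS (asparagine synthetase) measured 49.6 and 43.9 in the controls, 41.1 in AZD2811 replicate 1 and 76.3 in replicate 2. CHAC1, which degrades glutathione, measured 3.15 and 2.28, then 2.73 and 5.70, and SLC7A5, a transporter of large amino acids, 37.1 and 32.9, then 34.9 and 46.98. The high values of these 3 genes in pRB- cells all belong to AZD2811 replicate 2, and the groups overlap. In pRB+ cells AZD2811 replicate 2 was likewise the highest library, with ASNS at 80.1, CHAC1 at 10.5 and SLC7A5 at 53.7. AZD2811 replicate 1 of pRB+ cells held 31.9, 3.86 and 44.0.

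SLC7A11, the cystine transporter and also an ATF4 target, was higher in both AZD2811 libraries, at 1.70 and 2.11 against 1.48 and 1.35, a difference of 0.27 ± 0.14 (SE). MARS, a tRNA synthetase gene, stood at 0.18 ± 0.12, and ATF3, a stress-induced transcription factor that the list shares with the immediate early genes, at -0.42 ± 0.29. The unfolded protein list had a median of -0.051 over 21 genes, which was 0.0063 without control replicate 1 and -0.12 without control replicate 2. HERPUD1, a factor of protein quality control, measured 22.3 and 15.3 in the controls and 13.6 and 13.7 under AZD2811. HSPA5 (the chaperone BiP) measured 171 in control replicate 1 and 97.8 in control replicate 2, against 111 and 86.0, and its difference of -0.40 ± 0.22 became 0.0021 without control replicate 1. MANF, a secreted stress protein, stood at -0.17 ± 0.10.

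The heat shock list had a median of -0.054 over 12 genes, which was 0.0037 without control replicate 1 and -0.13 without control replicate 2. Among its genes, DNAJB1 (a co-chaperone) stood at -0.20 ± 0.10 (SE), HSP90AA1 at -0.15 ± 0.12 and the mitochondrial chaperone HSPD1 at -0.15 ± 0.13. The hypoxia and glycolysis list, at -0.073 over 27 genes, was another whose sign depended on the library, with -0.24 in AZD2811 replicate 1 alone and 0.10 in replicate 2 alone. VEGFA, the vascular growth factor, was the 1 gene of the list above both controls in both AZD2811 libraries, and 2 genes lay below in both. It measured 15.0 and 14.3 in the controls and 18.6 and 18.1 under AZD2811, a difference of 0.30 ± 0.14. The glycolytic genes PFKM and LDHB stood at -0.17 ± 0.13 and -0.18 ± 0.16, lower than the controls in replicate 1 and between them in replicate 2. The immediate early list had a median of -0.049 over 10 genes, which was 0.14 without control replicate 1 and -0.23 without control replicate 2. JUNB stood at 0.22 ± 0.14 and JUND at -0.25 ± 0.19, both with overlapping groups.

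Lists that bear on the fate of cells after failed division also held 0 genes that rose or fell. The p53 target list had a median of -0.054 over 24 genes. CDKN1A, the cell cycle inhibitor p21, measured 1.63 and 1.14 in the controls and 1.63 and 1.66 under AZD2811, with overlap and a difference of 0.16 ± 0.13 (SE). CCNG1 (cyclin G1) measured 81.1 and 80.7 against 60.3 and 64.3, SESN1 (sestrin 1) 8.03 and 7.72 against 5.96 and 6.51, and GADD45A, a DNA damage response gene, stood at -0.36 ± 0.19. Both AZD2811 libraries lay below both controls for CCNG1 and SESN1, whereas the groups overlapped for GADD45A.

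The BCL2 family, which sets the threshold for apoptosis, had a median of -0.12 over 11 genes. Its effectors BAX and BAK1 stood at -0.18 ± 0.15 and -0.19 ± 0.12 (SE), and the survival gene BCL2L2 at -0.15 ± 0.10. Of 31 interferon and DNA sensing genes 13 were tested, with a median of -0.071. ISG15 and IFI6, which interferon induces, measured 1.69 and 2.24 against 0.936 and 1.52, and 9.34 and 10.3 against 7.07 and 8.45. B2M, the light chain of MHC class I, stood at -0.17 ± 0.08. No member of that list was called in either direction, and the values of these 3 genes lay below the controls.

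The Hippo pathway, which is known to respond to tetraploidy, had a median of 0.0030 over 17 genes, with 7 values below 0. AMOTL2, a target of YAP, measured 6.66 and 6.45 in the controls and 7.48 and 8.32 under AZD2811, a difference of 0.23 ± 0.11 (SE). MOB1A and MOB1B, which activate the LATS kinases, stood at -0.093 ± 0.10 and -0.19 ± 0.12. The 95% interval lay between -0.5 and 0.5 for all 17 genes.

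In 3 lists of abundant housekeeping genes the median was lower in AZD2811 replicate 1 alone than in replicate 2 alone. Cytosolic ribosomal protein genes had a median of -0.10 over 64 genes, made of -0.26 in AZD2811 replicate 1 and 0.067 in replicate 2. RPL13A measured 693 and 692 in the controls, 505 in replicate 1 and 681 in replicate 2, and RPSA 849 and 895, then 628 and 893. Oxidative phosphorylation genes had a median of -0.13 over 58 genes (-0.22 and -0.033), with SDHD, a subunit of respiratory complex II, at 41.6 and 42.8, then 32.0 and 39.3. NDUFB1 of complex I stood at -0.21 ± 0.10 (SE) and UQCRC2 of complex III at -0.24 ± 0.11. Of these lists 0 genes rose or fell, and the share with both AZD2811 libraries below both controls was 1.56% for ribosomal proteins and 39.7% for oxidative phosphorylation, against 17.6% of all genes. In the class of the ribosomal protein list, above 500 scaled FPKM, the median of all genes was -0.091. In that of the oxidative phosphorylation list, from 100 to 500, it was -0.090.

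Mitochondrial ribosome genes had a median of -0.095 over 50 genes (-0.17 in AZD2811 replicate 1 and -0.0096 in replicate 2). Of them 34% had both AZD2811 libraries below both controls, against 17.6% of all genes. The class of their median level, 20 to 50 scaled FPKM, had a median of -0.055. In this list MRPL19 stood at 8.89 and 8.81 in the controls and 7.14 and 7.80 under AZD2811. MRPS10 and MRPL40 both stood at -0.25, with SE of 0.11 and 0.12. Nucleolar MYC targets had a median of 0.013 over 35 genes, and 11 of them had both AZD2811 libraries above both controls (31.4%, against 12.8% of all genes). NOP56, a core protein of the box C/D particles that guide methylation of ribosomal RNA, measured 68.7 and 64.9 against 76.8 and 78.4, NOP58 of the same particles stood at 0.21 ± 0.13 (SE) and UTP14A, a factor of small subunit assembly, at 0.24 ± 0.12. Lysosome and autophagy genes had a median of -0.028 over 28 genes, with NPC2 at -0.24 ± 0.15 and the calcium channel gene MCOLN1 at 0.20 ± 0.12. Polyadenylated histone variants had a median of -0.15 over 9 genes, with H2AFV and H2AFZ at -0.20 ± 0.09 and -0.20 ± 0.13 and the centromeric CENPA at -0.14 ± 0.11. Again 0 genes of these 4 lists rose or fell.

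The identity of the cells was that of the label. NEUROD1, the factor that defines 1 neuroendocrine subtype of this cancer, measured 109 and 102 in the controls and 111 and 93.5 under AZD2811, whereas POU2F3, the tuft cell factor, lay between 0 and 0.010. Neuroendocrine genes had a median of -0.012 over 18 genes, with the granule gene CHGA at 43.1 and 41.8 in the controls, 41.9 in AZD2811 replicate 1 and 55.2 in replicate 2. SNAP25 of the synapse stood at 0.27 ± 0.15 (SE) and SCG2 of the granule at -0.27 ± 0.17. Genes of non-neuroendocrine states had a median of 0.027 over 9 genes, with MYC at 309 and 307, then 309 and 377, HES1, a target of Notch, at 0.19 ± 0.17 and LGALS1 at -0.13 ± 0.16. Matrix and adhesion genes had a median of -0.051 over 12 genes, with FN1, LAMA1 and LAMC1 at -0.18 ± 0.12, -0.14 ± 0.12 and -0.096 ± 0.09. None of these genes rose or fell by the test.

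Drug efflux pumps were examined because they can lower the level of a drug in the cell. ABCB1 lay between 0.345 and 0.457 and ABCG2 between 0 and 0.006 in the 4 pRB- libraries, below the filter. Of the 4 pumps tested, ABCA3 measured 5.53 and 5.86 in the controls and 6.46 and 7.44 under AZD2811, a difference of 0.25 ± 0.10 (SE). ABCC4 stood at 0.12 ± 0.09 and ABCC1 at -0.030 ± 0.08, the latter with levels from 15.2 to 15.9 in all 4 libraries. None of the 4 rose or fell.

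Markers of other cell types were at or near 0. The summed level of 8 endothelial markers lay between 0.251 and 0.385 and that of 10 lung epithelial markers between 0.071 and 0.106, and 6 of the latter were listed at 0 in all 4 libraries. The summed level of 10 immune markers was 4.85 and 4.50 in the controls and 5.63 and 3.55 under AZD2811, of which CD68 made up 2.71 to 4.79, while PTPRC, which marks all leukocytes, stayed at or below 0.011. For 10 fibroblast markers the sum was 23.7 to 25.6, of which THY1, also a neuronal gene, made up 21.7 to 24.3. In these bulk libraries, fewer cells of a type and less RNA per cell cannot be told apart.

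Over the lists, 21 of the 25 lists with at least 5 tested members had a median below 0, and 0 of the 25 held a gene past the threshold. The median of all genes was also below 0 in each level class from 10 scaled FPKM up, between -0.026 and -0.091. When each AZD2811 library was set against the controls alone, 15 lists lay below 0 in both libraries, 0 above 0 in both, and 10 had opposite signs. The passenger complex, checkpoint, cytokinesis, G2/M, G1/S and sterol lists were among the 15. The integrated stress, glycolysis, immediate early, MYC target, neuroendocrine and ribosomal protein lists were among the 10. All genes of 20 to 50 scaled FPKM had a median of -0.0955 in replicate 1 alone and -0.0171 in replicate 2 alone. The passenger complex, cytokinesis and G2/M lists lay above this class in replicate 1 and below it in replicate 2. The G1/S list lay below it in both. The checkpoint and sterol lists lay below their class of 10 to 20 scaled FPKM (-0.0425 and -0.0147) in both. Leaving out 1 control changed the sign of the median in 7 lists, namely recombination, heat shock, Hippo, immediate early, integrated stress, MYC targets and unfolded protein.

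**Figure D4:**
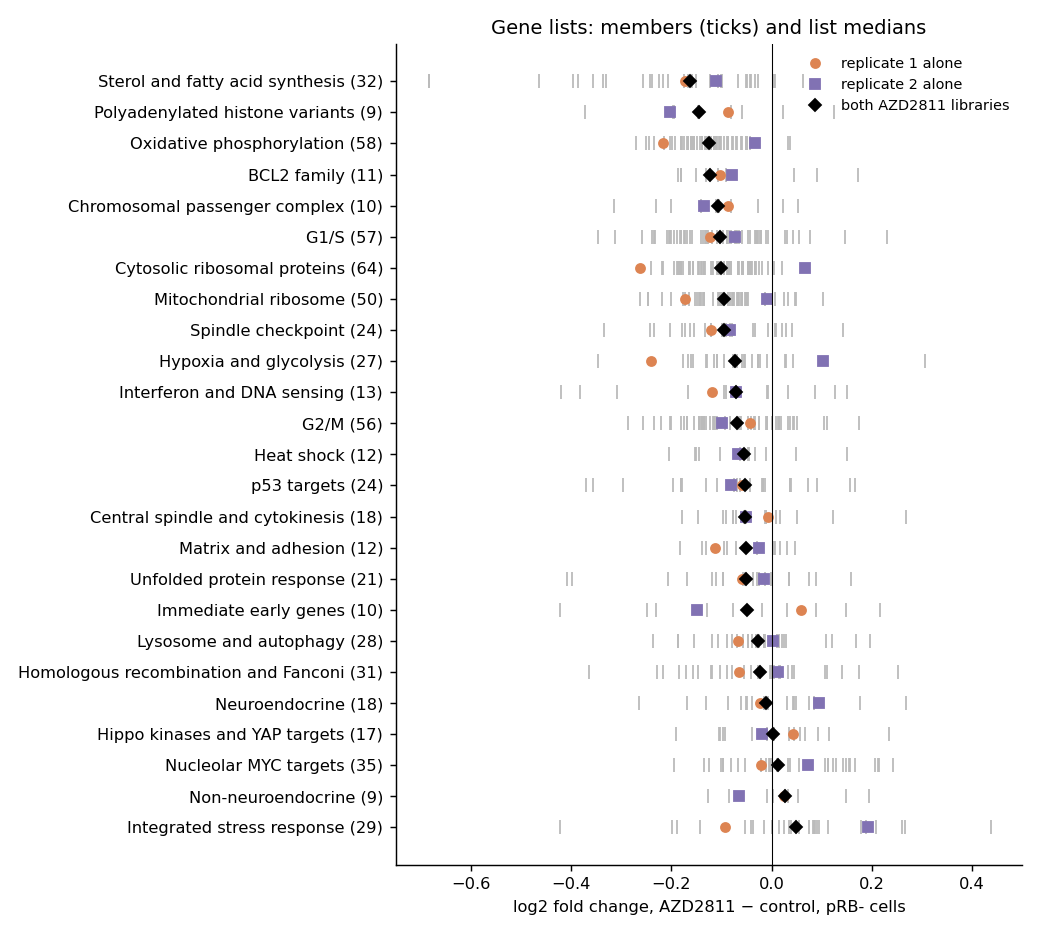
Difference between AZD2811 and control in pRB- cells (log2 fold change) for 25 gene lists, with the number of tested genes in parentheses. Ticks are genes (those beyond -0.75 are off the axis), black diamonds list medians over both AZD2811 libraries, orange circles and purple squares the medians with AZD2811 replicate 1 or 2 alone against both controls; circles and squares lie on opposite sides of 0 for 10 lists.

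The same comparison in pRB+ cells shares no library with that in pRB- cells. There 0 of 11693 genes passed (0% called), and 76 had an unadjusted p under 0.05 (0.65%), of which 25 (0.214%) had higher and 51 (0.436%) lower values. The test of the difference between the AZD2811 effects of pRB- and pRB+ cells also called 0 genes (0%), with 64 at an unadjusted p under 0.05 (0.547%), 31 higher (0.265%) and 33 lower (0.282%) in pRB- cells. A dependence of the response on pRB was thus not detected for any gene, with 2 libraries in each of the 4 groups.

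The list medians of both states are given side by side. In pRB+ cells the G2/M median was -0.087 and that of the passenger complex -0.12, against -0.069 and -0.11 in pRB- cells. The G1/S median was -0.013 against -0.10, and the sterol median -0.011 against -0.16. RRM2 stood at -0.012 ± 0.10 (SE) in pRB+ and at -0.31 ± 0.10 in pRB- cells, and INSIG1 at -0.034 ± 0.29 against -0.68 ± 0.29; neither difference passed (limma, adjusted p = 1 for both). RRM2 and INSIG1 were named with their pRB- values known, and that choice alone tends to leave smaller values in pRB+ cells. Their contrast therefore does not show a dependence on pRB. The integrated stress median was 0.12 against 0.049. Across the 11693 genes the effects in the 2 states had Pearson r = 0.285 and Spearman coefficient 0.322, and 61.9% had the same sign; genes are not independent replicates, and rich libraries occur in both comparisons.

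**Figure D5:**
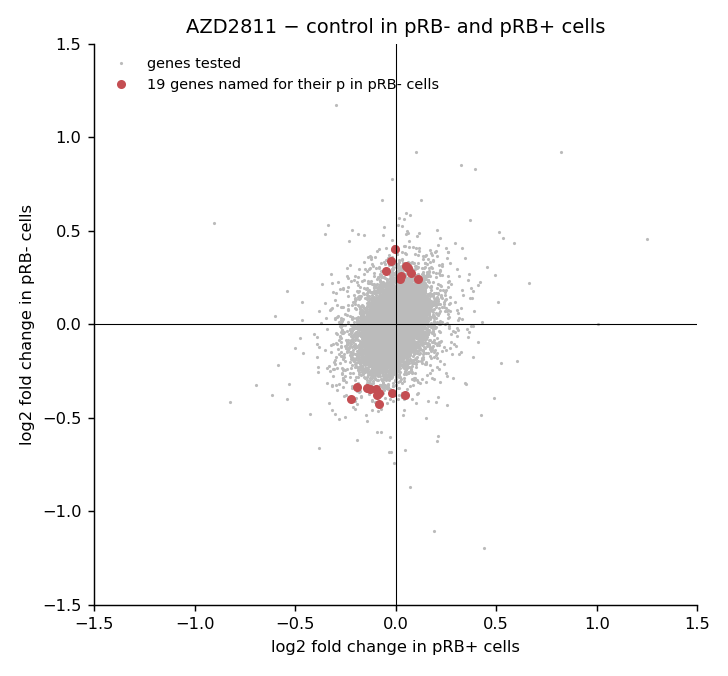
Difference between AZD2811 and control (log2 fold change) in pRB- cells (vertical axis) against pRB+ cells (horizontal axis). Grey points are genes tested, of which 15 lie beyond the axes, and red points the 19 genes named for their p in pRB- cells, which lie between -0.43 and 0.40 on the vertical axis and between -0.22 and 0.11 on the horizontal one. The choice of these genes by their pRB- values alone tends to make the vertical range the wider one.

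With all 4 AZD2811 set against all 4 control libraries, in a fit with an additive term for doxycycline, 0 of 11693 genes passed (0% called; limma, smallest adjusted p = 0.98). An unadjusted p under 0.05 was found for 410 genes (3.51%), 125 with higher (1.07%) and 285 with lower values (2.44%). The G2/M median was -0.087, the G1/S median -0.064, the sterol median -0.099 and the integrated stress median 0.079. SUCLG2 stood at -0.31 ± 0.07 (SE), SPC25 at -0.26 ± 0.07 and SLC7A11 at 0.38 ± 0.10, none past the threshold. These genes were named for their p in the pRB- libraries, which are part of this fit, so the values are not independent of that choice.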

How the data were processed

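Stranded total RNA libraries were made from 500 ng of RNA, per the labels' protocols. The authors deposited 1 table of FPKM for the 8 libraries. STAR 2.5.1b, Cufflinks 2.2.1 and the build hg19 are named in the submitters' processing notes, without their roles, and the annotation is not given in the sources used here. Of 25365 rows, 28 with date-like names were left out. FPKM was rescaled between libraries by a trimmed mean of log ratios (cutting 30% from either end of the ratios and 5% from either end of the levels), genes under a mean of 1 over the 8 libraries were dropped, and log2(scaled FPKM + 1) was tested with limma 3.58.1 (R 4.3.3, intensity trend, 4 group means over 8 libraries, Benjamini-Hochberg adjusted p under 0.05 over 11693 genes). FPKM are not counts, so no count test was run. Depth was estimated from the steps of low FPKM values in 1524 genes with a single transcript over 1500 nucleotides, and is approximate. For the 8 libraries it was 23300000 to 33800000 fragments. The fit was tested on simulated data with 200 changed genes per run, of sizes 0.5, 1 and 2 on the log2 scale.

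A library was called rich in RNA without poly(A) tails above 1000 scaled FPKM of RMRP. Members and gene lists were chosen with earlier results of these data known. The text names AURKB and RB1, then up to 10 genes a direction past the threshold, filled by smallest unadjusted p among genes of at least 5 scaled FPKM whose groups do not overlap, then up to 3 genes per list by smallest p, and genes whose role is explained. RNAs of the list without poly(A) tails, LOC and LINC names and readthrough names were skipped there. Alternatives were another scaling, none, another pseudocount or filter, the families kept, a robust spread, a library type term, a replicate block, fewer libraries, and each library left out. Some genes that the rule names are not reported here.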

Additional observations from a re-analysis of the deposited data

Results flagged for a closer look

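Of the 6 families set aside from the comparison, the histone and RNU genes had medians under AZD2811 above both controls in both libraries, and the other 4 families did not. The SNORD median was 10.6 in control replicate 1, 0 in control replicate 2, 0 in AZD2811 replicate 1 and 10.0 in AZD2811 replicate 2. It thus did not follow library type, and the MIR median was at or near 0 in each pRB- library. The median of 47 histone genes was 55.4 scaled FPKM in AZD2811 replicate 1 and 1.16 in replicate 2, against 0.989 and 0.855 in the controls. The median of 4 RNU genes, which encode small nuclear RNAs, was 66.4 in AZD2811 replicate 1 and 3.27 in replicate 2, and both controls were listed at 0. The high values belong to the library that is also rich in RMRP, and the part of library type in them was not tested.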

How the results depend on the processing

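The count of 0 genes in pRB- cells stayed 0 with no filter, a robust spread, median-ratio scaling, 0.1 as the pseudocount, a library type term, the filter on the 4 pRB- libraries and a fit of those libraries alone. With FPKM as deposited 4 genes were called, RPPH1, SNAR-B1, TERC and RMRP, all RNAs without poly(A) tails, and the median of all genes moved to -0.64. With the set-aside families kept, 4 of their genes were called, all lower under AZD2811. They were MIR6884 (-7.85 on the log2 scale), MIR3940 (-5.06), MIR600 (-4.70) and SNORA32 (-3.74). Leaving out 1 library in turn gave 0 to 1 genes, the 1 being SNAR-E without AZD2811 replicate 2. In pRB+ cells the count was 3 with FPKM as deposited, 1 with no filter, 1 with the families kept and 0 to 1 with a library left out. For the interaction it was 3 with FPKM as deposited, 2 with the families kept and 0 to 2 with a library left out, and over both states 2 with FPKM as deposited and 0 to 1 with a library left out. The cause was not tested. The interaction and the fit over both states need all 8 libraries, so they have no value for the 4 libraries alone.

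Replicate numbers are shared by the groups. Correlations of same-numbered deviations ran from -0.24 to 0.58 over all pairs of groups, with 0.229 for the pRB- groups. The highest was between the pRB- and pRB+ AZD2811 groups, where replicate 1 is rich in both. The lowest was between the pRB- AZD2811 and pRB+ control groups, whose rich libraries have different numbers. This measure therefore cannot decide whether the numbers pair the samples, and the fit reported above did not pair them. With the replicate block 0 genes were called in pRB- cells, 503 had an unadjusted p under 0.05 against 331 without the block, and the smallest adjusted p was 0.925 (limma).

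Of 116 named genes 12 changed direction when 1 library was left out. Their log2 differences ran from -0.37 to 0.0077 for BAX, -0.80 to 0.0021 for HSPA5, -0.54 to 0.049 for JUND, -2.33 to 0.12 for RPL21, -0.47 to 0.035 for RPSA, -0.017 to 0.37 for CHGA and -0.26 to 0.0046 for LGALS1. They ran from -0.28 to 0.0052 for LAMA1 (0.0024 with FPKM as deposited, relative to the median of all genes), -0.10 to 0.0039 for PLK1, -0.18 to 0.70 for ASNS, -0.0010 to 0.42 for SLC7A5 and -0.17 to 0.072 for NEUROD1. Of 468 alternative list medians 20 moved by more than the replicate spread. Many of the 468 could not move, because their settings leave the pRB- differences of the listed genes as they were. These settings are a pRB+ library left out, a robust spread, the replicate block, no filter, the families kept and the fit of the pRB- libraries alone. The count of 20 is therefore not a measure of how stable the medians are.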
